A study of Mus musculus with 4 samples.

Results

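The pre-B-cell receptor and the B-cell receptor were followed through 9 genes on 4 mouse expression arrays. The genes were Vpreb1, Vpreb3, Igll1, Cd79a, Cd79b, Blnk, Btk, Syk and Cd72, and they were read through every probe set annotated to exactly 1 of them, which gave 13 of the 34945 probe sets with a single gene. All 13 probe sets exceeded the floor described below on at least 1 array, and all 9 genes passed the filter, as did 14012 of 18193 genes in all.

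In B-cell precursors, the heavy chain of immunoglobulin is carried to the surface by a surrogate light chain made of the Vpreb1 and Igll1 proteins, before any true light chain exists. Cd79a and Cd79b span the membrane beside it and carry the tyrosine motifs that are phosphorylated when the receptor is engaged. The kinase Syk docks on these motifs, the adaptor Blnk gathers Btk and phospholipase C gamma around Syk, and receptors such as Cd72 restrain the signal.

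The series is described as one of C57BL6 mice, and each of 4 samples was hybridised to 1 array. Leukemic marrow was taken from moribund mice some months on. The mixed lineage leukemia arose from hematopoietic stem or precursor cells transduced with both AF4-MLL and MLL-AF4, the 2 fusions of the AF4 and MLL genes. A pro-B acute lymphoblastic leukemia, called proB ALL, and a biphenotypic leukemia with B and T features, called B/T BAL, arose from such cells transduced with AF4-MLL alone. The remaining sample was normal bone marrow cells. The leukemias were named by the immunophenotype found by flow cytometry, and the cells were not sorted, so each leukemic sample may hold other marrow cells. Mouse ages, the strain of the normal marrow by its own label, the vector and the promoter that drove the fusions, and any pooling of animals are not stated in the labels. Each group had 1 array, so no replicate error stands behind any 1 of these values. In unsorted samples, fewer cells of a type and less RNA per cell cannot be told apart.

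Signals are MAS5 intensities on a linear scale. The median of all signals on the 4 arrays, 189, served as a floor, and it is not a detection call. Differences are on the scale of log2(signal + 51.4), a pseudocount set at the 25th percentile of all signals, which understates the change of dim genes. A fold against a signal at or below the floor used the floor in its place and carries the words "at least". The share of probe sets above the floor was 57.4% for the mixed lineage leukemia, 46.3% for the proB ALL, 49.0% for the B/T BAL and 47.2% for normal marrow.

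The promoters of the 4 genes with the lowest log2 differences between leukemia and normal marrow, Vpreb1, Igll1, Vpreb3 and Blnk, are shown because these genes were low together on the leukemia arrays. Each sequence runs from 250 bases before to 50 bases after the gene start, 5′ to 3′ on the strand of the gene, from RefSeq on GRCm38.p6. RefSeq promoters were matched for 8 of the 9 genes, all except Cd79b, with 2 for Syk. Capitals mark matches on either strand to CAGGTG, an E-box, to ATGCAAAT, the octamer, and to CCCNNGGG, the core of the early B-cell factor site.
Vpreb1, chr16:16869206-16869505, minus strand: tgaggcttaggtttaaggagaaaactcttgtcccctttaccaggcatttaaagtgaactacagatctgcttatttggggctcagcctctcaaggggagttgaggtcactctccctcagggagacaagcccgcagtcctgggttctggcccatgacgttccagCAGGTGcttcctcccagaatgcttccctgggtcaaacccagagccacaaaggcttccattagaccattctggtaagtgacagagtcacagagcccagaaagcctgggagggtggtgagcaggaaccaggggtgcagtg
Igll1, chr16:16863936-16864235, minus strand: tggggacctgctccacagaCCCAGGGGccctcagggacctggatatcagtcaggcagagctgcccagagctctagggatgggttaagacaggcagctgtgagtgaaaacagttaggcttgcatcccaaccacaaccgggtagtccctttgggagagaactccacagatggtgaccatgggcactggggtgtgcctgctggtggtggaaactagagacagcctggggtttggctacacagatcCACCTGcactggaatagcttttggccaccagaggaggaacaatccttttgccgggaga
Vpreb3, chr10:75948050-75948349, plus strand: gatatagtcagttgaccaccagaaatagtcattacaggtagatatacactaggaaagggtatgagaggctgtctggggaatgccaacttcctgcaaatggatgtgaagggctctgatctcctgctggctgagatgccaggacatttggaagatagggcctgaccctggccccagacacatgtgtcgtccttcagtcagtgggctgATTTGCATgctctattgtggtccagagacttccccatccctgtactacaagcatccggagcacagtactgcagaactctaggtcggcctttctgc
Blnk, chr19:40994172-40994471, minus strand: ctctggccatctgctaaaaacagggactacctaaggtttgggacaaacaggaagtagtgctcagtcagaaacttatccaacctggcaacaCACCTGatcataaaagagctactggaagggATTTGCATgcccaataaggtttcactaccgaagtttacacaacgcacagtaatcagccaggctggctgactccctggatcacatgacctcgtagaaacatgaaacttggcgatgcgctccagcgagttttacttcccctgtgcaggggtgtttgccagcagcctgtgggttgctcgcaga

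Vpreb1 and Igll1 are direct neighbours on chromosome 16, with 0 genes listed between them. The E-box letters stood at base 163 of the Vpreb1 sequence, base 243 of the Igll1 sequence and base 91 of the Blnk sequence, and the octamer letters at base 206 of the Vpreb3 sequence and base 121 of the Blnk sequence, each counted from the 5′ end. Of the 9 promoters of these genes, 6 held CAGGTG, against 20.2% of all 32851 RefSeq promoters of the same length. ATGCAAAT stood in 2 of the 9, against 1.74% of all promoters. CCCNNGGG, the palindromic core of the site of early B-cell factors, stood in 1 of the 9, at base 20 of the Igll1 sequence, and in 13.7% of all promoters. A longer form of it, with a further base on each side and searched first, matched none of the 9. These motifs do not overlap in the printed windows, they were chosen after the sequences had been seen, and a match to letters is a description of the sequence alone.

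Receptor genes were lower on the leukemia arrays than in normal marrow, and by their brightest probe sets Vpreb1, Igll1 and Vpreb3 had the lowest log2 differences over the 3 leukemias. On the mixed lineage array 5 of the 9 genes were at least 2-fold lower than in normal marrow, against 15.2% of all genes tested. Without probe sets whose names end in _x_at, _s_at or _a_at, which drops Cd72 and leaves Igll1 its dimmer probe set, that count was 3 of 8, and on the proB ALL and B/T BAL arrays, given next, it was 7 of 8 each. On the proB ALL array 8 of 9 were at least 2-fold lower (18.7% of all genes), and on the B/T BAL array 9 of 9 (17.7% of all genes). No gene of the 9 was at least 2-fold higher on any leukemia array, against 18.8% of all genes in the mixed lineage leukemia, 11.3% in the proB ALL and 15.4% in the B/T BAL. The median log2 difference of the 9 genes was -2.50 in the mixed lineage leukemia, -2.10 in the proB ALL and -3.61 in the B/T BAL, beside 0.08, -0.11 and 0.05 over all genes tested. Vpreb1, Vpreb3, Igll1, Blnk and Cd72 were at least 2-fold lower on all 3 leukemia arrays, as were 4.45% of all genes. Signals of 8 of the 9 genes lay below normal marrow on all 3 arrays, as did 19.2% of all genes, and Syk was the exception. The 3 comparisons share the 1 normal array. By their brightest probe sets Vpreb1 and Igll1 passed the filter through that array alone, so in these counts they could only be lower.

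**Figure D1:**
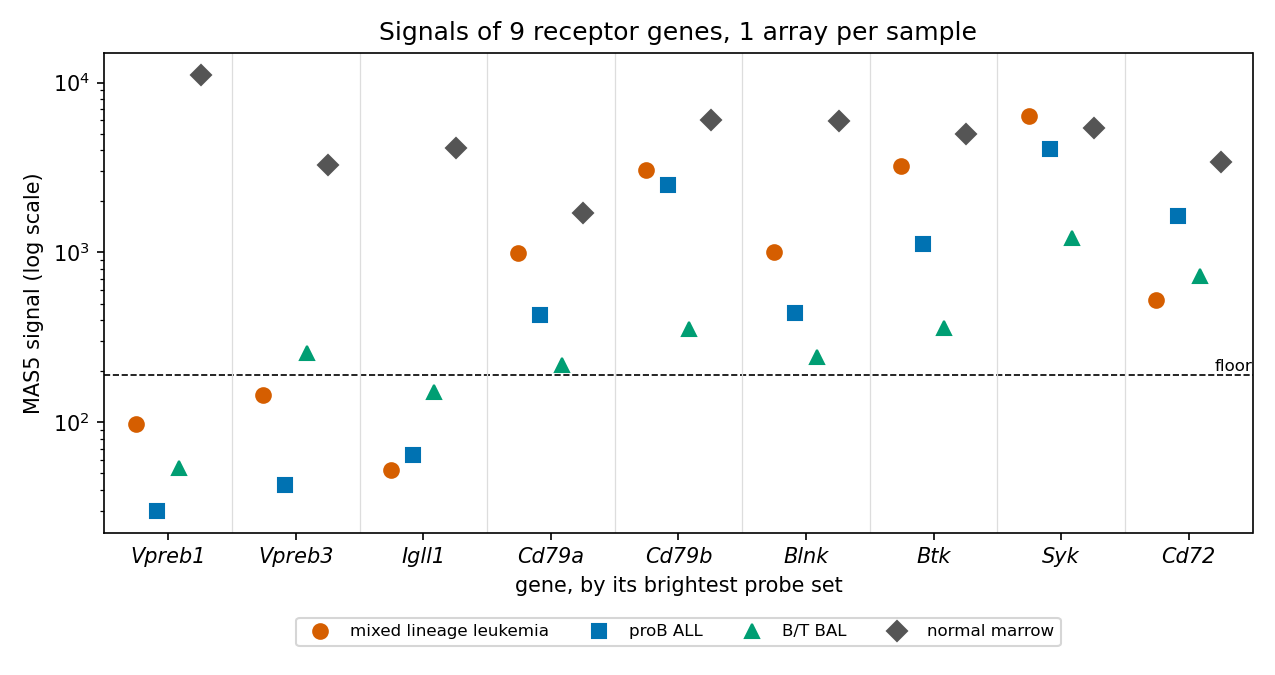
MAS5 signal (log axis) of the 9 genes by their brightest probe set, with 1 point per array and the 3 leukemias left of normal marrow for each gene; the dashed line is the floor of 189. Vpreb1 and Igll1 lie below the floor in all 3 leukemias, against 11111 and 4111 in normal marrow, while Syk reaches 6398 in the mixed lineage leukemia against 5435 in normal marrow.

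In limma's fit of the 3 leukemias against the 1 normal array, 0 of the 9 genes passed an adjusted p of 0.05, and neither did any other gene (0% called, lower or higher). The spread in this fit comes from 3 leukemias of different immunophenotype, with 2 residual degrees of freedom, and the normal array is assumed to vary like them. Vpreb1 and Igll1 entered it only through normal marrow, where they were high, so for them lower was the only possible direction. At an unadjusted p under 0.05, 4 of the 9 genes were lower, Vpreb1, Vpreb3, Igll1 and Blnk, against 2.63% of all genes tested. The smallest adjusted p over all genes was 0.0702, shared by 17 genes, Vpreb1 among them.

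The surrogate light chain genes lay below the floor on the leukemia arrays by their brightest probe sets. Vpreb1, its variable-like part, had signals of 97.3 in the mixed lineage leukemia, 30.1 in the proB ALL and 54.1 in the B/T BAL, against 11111 in normal marrow. All 3 leukemia signals lay below the floor, so Vpreb1 was at least 58.9-fold lower on each array, and the leukemias have no order among themselves. Its log2 difference over the leukemias was -6.68 ± 0.88 (SE, 3 arrays against 1; adjusted p = 0.0702, limma). Once dim signals were set to the floor, the difference was -5.54 on each array, with an adjusted p of 0.179 in limma. Without the proB ALL array the adjusted p was 3.2e-05, without the B/T BAL array 4.6e-06 and without the mixed lineage array 0.196, and over all 14 alternatives it ranged from 4.6e-06 to 0.608. A fit without 1 leukemia takes its spread from the other 2 arrays. For Vpreb1 both of those signals lay below the floor, so these values do not measure a spread among leukemias. A further probe set, which Vpreb1 shares with its near-identical copy Vpreb2 and which is therefore outside the 13, had 94.4, 83 and 53.3 in the mixed lineage leukemia, the proB ALL and B/T BAL, against 2917 in normal marrow.

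Igll1, the constant-like part of the surrogate light chain, was read by 2 probe sets that differed in size. The brighter, with a name ending in _x_at, had 52.7 in the mixed lineage leukemia, 64.6 in the proB ALL and 151 in the B/T BAL, against 4111 in normal marrow. All 3 leukemia signals were below the floor, at least 21.8-fold lower, and the log2 difference was -4.95 ± 0.91 (SE, 3 arrays against 1; adjusted p = 0.195, limma). Once dim signals were set to the floor it was -4.12. That name ending marks it as one that may cross-hybridise with other transcripts. The dimmer had 305, 31.2 and 244 on the mixed lineage, proB ALL and B/T BAL arrays, against 503 in normal marrow. By this probe set Igll1 was at least 2.67-fold lower in the proB ALL but 1.65-fold lower in the mixed lineage leukemia and 2.06-fold lower in the B/T BAL, and its log2 difference over the leukemias was -1.43 (adjusted p = 1, limma). Both probe sets thus ran below normal marrow on all 3 arrays, and the brighter lay further below it on each. For the brighter, a fit without 1 leukemia again takes its spread from signals below the floor. Igll1 passed the adjusted threshold without the proB ALL array (adjusted p = 0.0151) and without the B/T BAL array (adjusted p = 0.00689), within a range of 0.00689 to 1 over the 14 alternatives.

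Vpreb3, a VpreB-like protein of B-cell precursors, had 144 in the mixed lineage leukemia, 42.9 in the proB ALL and 255 in the B/T BAL, against 3261 in normal marrow. B/T BAL was the 1 leukemia array above the floor, 12.8-fold lower than normal marrow, and the others were at least 17.3-fold lower. The log2 difference was -4.22 ± 0.97 (SE, 3 arrays against 1; adjusted p = 0.424, limma). Without the B/T BAL array it was -4.61 with an adjusted p of 0.0305, and over the 14 alternatives the adjusted p ranged from 0.0305 to 1.

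The heavy chain that pairs with these proteins is Ighm, which 11 probe sets measured, 9 of them above the floor on some array. Its brightest probe set had 9162 in the mixed lineage leukemia, 21174 in the proB ALL and 19421 in the B/T BAL, against 40104 in normal marrow. The probe sets did not run together. Those brightest in normal marrow, at 40104, 32123 and 14862, were lower on all 3 leukemia arrays. Those at least 2-fold higher on some array had at most 1397 in normal marrow. The share over all probe sets was not counted. At least 2-fold lower were 4 in the mixed lineage leukemia, 3 in the proB ALL and 3 in the B/T BAL, and at least 2-fold higher were 1, 0 and 3 on the same arrays, counted where either signal exceeded the floor.

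**Figure D2:**
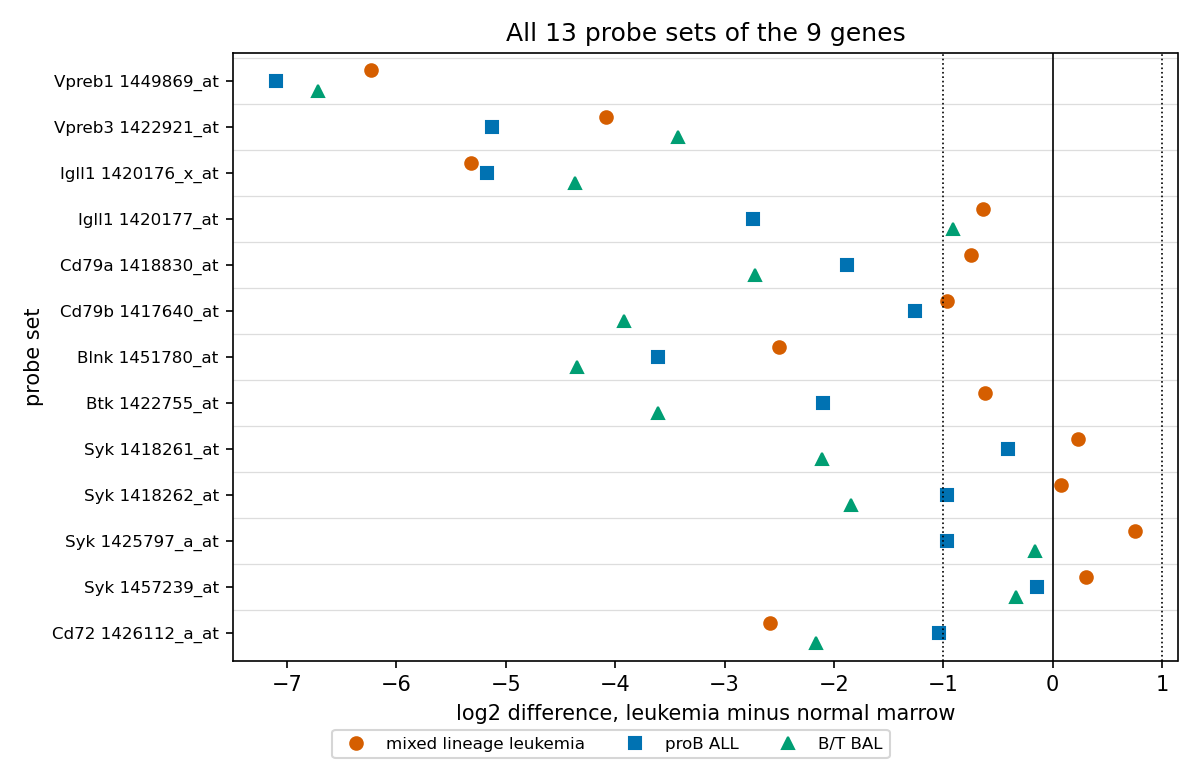
Log2 difference of each leukemia array from normal marrow for all 13 probe sets, 1 point per leukemia array; dotted lines mark 2-fold. The 2 probe sets of Igll1 lie apart, at -5.32 and -0.64 in the mixed lineage leukemia, and 0.23, -0.41 and -2.11 are the differences of the brightest Syk probe set in the mixed lineage leukemia, the proB ALL and B/T BAL.

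The signalling chains of the receptor were graded between the leukemias, and B/T BAL was lowest. Cd79a had 994 in the mixed lineage leukemia, 426 in the proB ALL and 216 in the B/T BAL, against 1708 in normal marrow. B/T BAL lay just above the floor, 7.93-fold below normal marrow, whereas mixed lineage leukemia was 1.72-fold and proB ALL 4.01-fold lower. Cd79b, the partner chain, had 3051 in the mixed lineage leukemia, 2484 in the proB ALL and 352 in the B/T BAL, against 6035 in normal marrow. It was 17.1-fold lower in the B/T BAL, 2.43-fold lower in the proB ALL and 1.98-fold lower in the mixed lineage leukemia. The log2 differences over the leukemias were -1.78 ± 0.94 for Cd79a and -2.05 ± 1.17 for Cd79b (SE, 3 arrays against 1; adjusted p = 1 for each, limma). Cd79b had the largest SD among the leukemias of the 9 genes, 1.62 on the log2 scale, and Vpreb1 the smallest, 0.44, with its leukemia signals all below the floor.

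The adaptor Blnk had 1005 in the mixed lineage leukemia, 441 in the proB ALL and 243 in the B/T BAL, against 5947 in normal marrow. Every leukemia lay well below normal marrow, by 5.92-fold, 13.5-fold and 24.5-fold in that order, and all signals were above the floor. The log2 difference was -3.49 ± 0.90 (SE, 3 arrays against 1; adjusted p = 0.586, limma; 0.127 to 0.959 over the alternatives). Btk, the Tec-family kinase that activates phospholipase C gamma, had 3213 in the mixed lineage leukemia, 1117 in the proB ALL and 358 in the B/T BAL, against 4954 in normal marrow. It was 1.54-fold lower in the mixed lineage leukemia, 4.44-fold lower in the proB ALL and 13.8-fold lower in the B/T BAL, with a log2 difference of -2.11 ± 1.11 (SE, 3 arrays against 1; adjusted p = 1, limma).

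Syk, the kinase that binds the phosphorylated Cd79 chains, was the gene of the 9 that was not lower throughout. Its brightest probe set had 6398 in the mixed lineage leukemia, 4069 in the proB ALL and 1219 in the B/T BAL, against 5435 in normal marrow. Mixed lineage leukemia was 1.18-fold higher, proB ALL 1.34-fold lower and B/T BAL 4.46-fold lower. A second bright probe set had 1485, 689.9 and 354 on the mixed lineage, proB ALL and B/T BAL arrays, against 1404 in normal marrow, in the same order. The remaining pair of Syk probe sets was dim, at most 277 on any array. The log2 difference over the leukemias was -0.76 ± 0.95 (SE, 3 arrays against 1; adjusted p = 1, limma), and it was -0.09 without the B/T BAL array.

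Cd72, a surface receptor that recruits the phosphatase Ptpn6 and inhibits the B-cell receptor, followed another order. It had 528 in the mixed lineage leukemia, 1638 in the proB ALL and 724 in the B/T BAL, against 3420 in normal marrow. Here proB ALL was nearest to normal marrow, 2.09-fold lower, with B/T BAL 4.73-fold and mixed lineage leukemia 6.48-fold lower. The log2 difference was -1.93 ± 0.84 (SE, 3 arrays against 1; adjusted p = 1, limma).

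Between the leukemias, 5 of the 9 genes, Cd79a, Cd79b, Blnk, Btk and Syk, ran in the order mixed lineage leukemia over proB ALL over B/T BAL, as did 19.1% of all genes tested. All 5 were at least 2-fold higher in the mixed lineage leukemia than in the B/T BAL, against 25.9% of all genes, and 0 of the 9 were at least 2-fold lower (20.8% of all genes). The widest of these gaps were those of Btk, 8.97-fold, and Cd79b, 8.67-fold. In the mixed lineage leukemia against proB ALL, Cd79a, Blnk and Btk were at least 2-fold higher, by 2.33-fold, 2.28-fold and 2.88-fold (26.9% of all genes), and Cd72 was 3.1-fold lower (15.3% of all genes). In the proB ALL against B/T BAL, Cd79b, Btk, Syk and Cd72 were at least 2-fold higher, by 7.06-fold, 3.12-fold, 3.34-fold and 2.26-fold (9.85% of all genes). Vpreb3 was lower there, at 42.9 in the proB ALL and 255 in the B/T BAL (14.2% of all genes), which is at least 1.35-fold with the floor. For mixed lineage leukemia against proB ALL, the 3 of 9 higher and the 1 of 9 lower lie near the shares of all genes. So does the 1 of 9, Vpreb3, that was lower in the proB ALL than in the B/T BAL. With 1 array a group these gaps have no test.

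Marker genes of other cells also differed between these arrays. The 7 monocyte markers summed to 150467 in the mixed lineage leukemia, 25492 in the proB ALL and 33224 in the B/T BAL, against 74543 in normal marrow, and monocytes are known to use Syk and Btk. The 7 neutrophil markers summed to 504920, 81618 and 256944 in the mixed lineage leukemia, the proB ALL and B/T BAL, against 305460 in normal marrow. The 8 measured T-cell markers summed to 2376, 45465 and 162746 on these arrays, against 3813 in normal marrow. Of these markers 5, 4 and all 8 lay above the floor, against 6 in normal marrow. Most of the proB ALL sum came from Thy1, at 28959, and Cd3d, at 12582, while Cd3e, Cd8a, Cd4 and Ptcra lay below the floor there. The 7 measured natural killer and cytotoxic markers summed to 10186, 126120 and 1172, against 11212 in normal marrow, and all 7 lay above the floor in the proB ALL. Of the 5 plasma cell markers, 4, 5 and 4 lay above the floor in the mixed lineage leukemia, the proB ALL and B/T BAL, against 5 in normal marrow, with sums of 32648, 48926 and 28295, against 42962. The 6 plasmacytoid dendritic cell markers, genes of a cell type that shares features with B-cell precursors, summed to 5449, 9786 and 6803, against 6724 in normal marrow. The 6 measured erythroid markers summed to 1754, 1782 and 3330 in the leukemias, against 154323 in normal marrow. The part of these cells in the receptor gene signals was not tested.

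Most B-cell markers outside the 9 genes ran lower as well, also on the array labelled proB ALL. The 8 measured B-cell markers summed to 6853 in the mixed lineage leukemia, 5154 in the proB ALL and 4936 in the B/T BAL, against 19247 in normal marrow. Of these, Blk, Cd22 and Ms4a1 are also among the pathway genes below. At least 2-fold lower were 5 of the 7 that passed the filter in the mixed lineage leukemia, 5 in the proB ALL and 6 in the B/T BAL, beside 15.2%, 18.7% and 17.7% of all genes. At least 2-fold higher were 0, 0 and 1, beside 18.8%, 11.3% and 15.4% of all genes. The 1, which lies near that share, was Ralgps2, with 2266 in the B/T BAL against 1048 in normal marrow. Ebf1, which directs early B-cell fate, had 138, 128 and 117 in the mixed lineage leukemia, the proB ALL and B/T BAL, all below the floor, against 697 in normal marrow. It too passed the filter through normal marrow alone. Pax5, which fixes that fate, lay below the floor on all 4 arrays, with 118, 99.2 and 58.6 in the leukemias and 185 in normal marrow. Spib, a B-cell transcription factor outside these markers, had 991, 1550 and 240.3 in the mixed lineage leukemia, the proB ALL and B/T BAL, against 5977 in normal marrow. Other B-lineage factors ran both ways, with Ikzf3 and Tcf3 higher in the B/T BAL, as given at the end. Vpreb1, Igll1 and Ebf1, genes that mark pro-B cells, thus lay below the floor by these probe sets on the array labelled proB ALL. So did Vpreb3 (42.9) there. On the same array Cd79a (426), Cd79b (2484), Blnk (441) and the brightest Ighm probe set (21174) lay above the floor, each below normal marrow. Tcf3, at 2399, lay above normal marrow (1635).

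Other genes of the pathway lay on both sides of normal marrow. Of 63 other pathway genes, 50 were measured. At least 2-fold lower were 7 in the mixed lineage leukemia, 13 in the proB ALL and 21 in the B/T BAL, and at least 2-fold higher were 6, 9 and 7 on the same arrays. Over all genes 15.2%, 18.7% and 17.7% were lower and 18.8%, 11.3% and 15.4% higher on these arrays. The 7 lower of 50 in the mixed lineage leukemia and the 7 higher in the B/T BAL thus lie near those shares. Their median log2 differences were -0.06, 0.17 and -0.61, beside 0.08, -0.11 and 0.05 over all genes tested. In limma 0 of the 50 passed the adjusted threshold, and 3 lower (Blk, Cd22 and Siglecg) and 1 higher (Itpr2) had an unadjusted p under 0.05, against 2.63% and 0.314% of all genes.

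**Figure D3:**
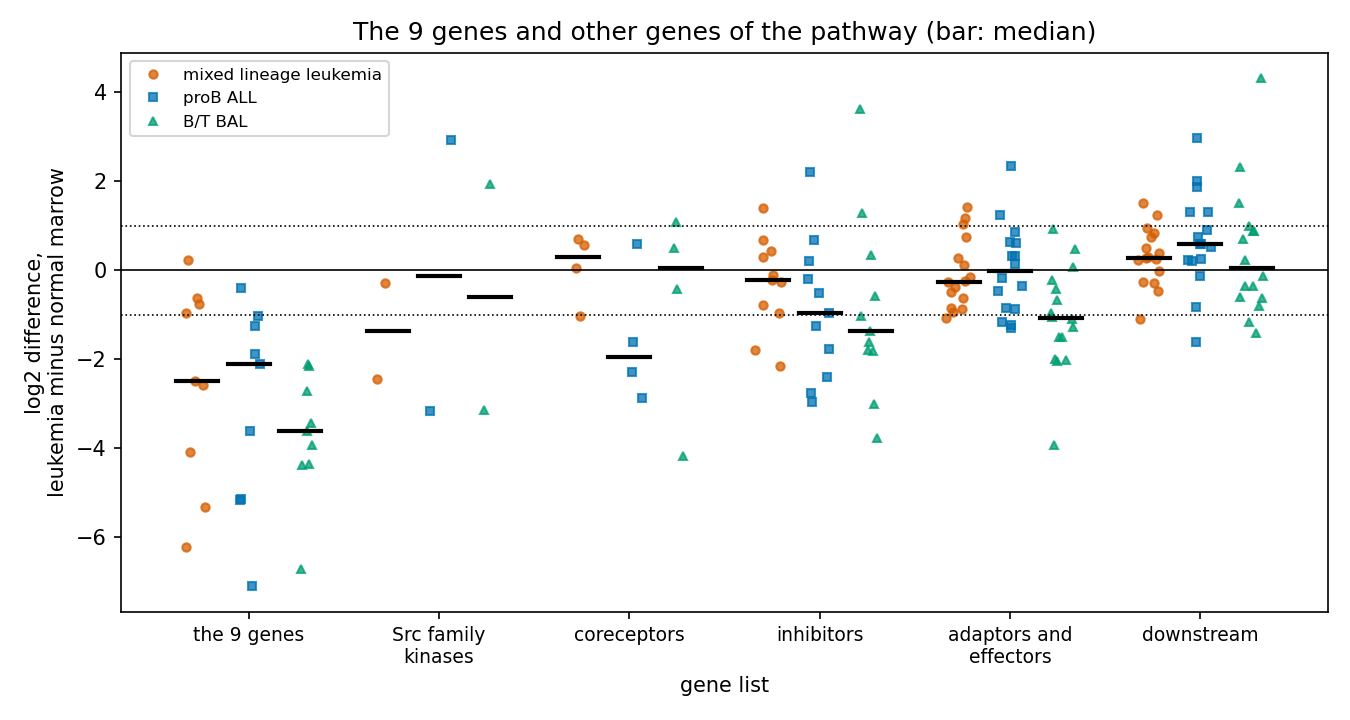
Log2 difference of each leukemia array from normal marrow for the 9 genes and for 5 lists of other pathway genes, 1 point per gene and array; bars are medians and dotted lines mark 2-fold. The 9 genes have medians of -2.50, -2.10 and -3.61, and the downstream genes of 0.28, 0.58 and 0.06, in the mixed lineage leukemia, the proB ALL and B/T BAL.

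Among the kinases and coreceptors, Blk, a Src-family kinase of B cells, had 508 in the mixed lineage leukemia, 288 in the proB ALL and 294 in the B/T BAL, against 3007 in normal marrow, and was at least 2-fold lower on all 3 arrays. Fyn, a Src-family kinase also used by T cells, had 659, 6550 and 3283 in the mixed lineage leukemia, the proB ALL and B/T BAL, against 815 in normal marrow, and so was higher in the leukemias with AF4-MLL alone. Ms4a1 (CD20) had 2746, 721 and 261 in the mixed lineage leukemia, the proB ALL and B/T BAL, against 5634 in normal marrow, lower on all 3 arrays by at least 2-fold. Cd81, which joins the coreceptor complex and is made by many cells, had 8873, 1741 and 12301, against 8647 in normal marrow, and was low in the proB ALL. Ptprc (CD45), the phosphatase that keeps Src-family kinases ready, had 36338, 36839 and 51682, against 24486 in normal marrow.

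Among 11 inhibitors, 2, 5 and 7 were at least 2-fold lower in the mixed lineage leukemia, the proB ALL and B/T BAL, and 1, 1 and 2 were higher. Over all genes 15.2%, 18.7% and 17.7% were lower and 18.8%, 11.3% and 15.4% higher. The 2 lower in the mixed lineage leukemia, and the 1 and 2 higher in the proB ALL and B/T BAL, lie near those shares. Cd22, an inhibitory lectin of B cells, had 773, 650.4 and 409 in the mixed lineage leukemia, the proB ALL and B/T BAL, against 3633 in normal marrow. Siglecg, a related lectin, had 769, 311 and 158, against 2782 in normal marrow. These were the 2 inhibitors at least 2-fold lower on all 3 arrays. Ptpn6, the phosphatase that Cd72 and Cd22 recruit, had 8139, 3942 and 4588, against 9489 in normal marrow, and myeloid cells also make it. Cd5, an inhibitor of T cells and some B cells, had 239.7, 128 and 4297, against 299 in normal marrow, and was high in the B/T BAL alone of the 4 arrays.

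Among 16 adaptors and effectors, B/T BAL had 9 at least 2-fold lower and 0 higher, against 1 lower and 3 higher in the mixed lineage leukemia and 3 lower and 2 higher in the proB ALL. Of all genes 17.7% were lower in B/T BAL, 15.2% in mixed lineage leukemia and 18.7% in proB ALL. Higher were 15.4%, 18.8% and 11.3% of all genes in that order. Both counts in the proB ALL and the 3 higher in the mixed lineage leukemia lie near these shares. Plcg2, the phospholipase C gamma that Btk and Syk phosphorylate, had 10126 in the mixed lineage leukemia, 6553 in the proB ALL and 1988 in the B/T BAL, against 8413 in normal marrow. Bank1, a B-cell scaffold, had 2951, 1801 and 169, against 3290 in normal marrow, so that it was below the floor in the B/T BAL only. Vav1, an exchange factor of all blood cells, had 2680, 2457 and 3073, against 1584 in normal marrow, and Sos1 had 1290, 1111 and 1157, against 1561.

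Genes further downstream did not run below normal marrow as a list. Of 16 measured, 1, 1 and 2 were at least 2-fold lower in the mixed lineage leukemia, the proB ALL and B/T BAL, and 2, 5 and 3 were higher. Over all genes 15.2%, 18.7% and 17.7% were lower and 18.8%, 11.3% and 15.4% higher. Both counts in the B/T BAL and the 2 higher in the mixed lineage leukemia lie near these shares. Itpr2, a calcium channel of the endoplasmic reticulum, had 1385, 1986 and 10023 in the mixed lineage leukemia, the proB ALL and B/T BAL, against 457 in normal marrow, and was the 1 pathway gene of the 50 at least 2-fold higher on all 3 arrays, as were 1.31% of all genes. Its probe set is one that more than 1 transcript may share by its name ending. Prkcb, the protein kinase C of the B-cell receptor, had 13267, 6751 and 13618, against 7371 in normal marrow. Rela, a subunit of NF-kappa B, had 3806, 6102 and 4855, against 5265 in normal marrow.

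Syk, Blnk and Btk have relatives that serve the T-cell receptor, and these ran differently. Zap70, the relative of Syk, had 136 in the mixed lineage leukemia, 1850 in the proB ALL and 7311 in the B/T BAL by its brightest probe set, against 616 in normal marrow. A second Zap70 probe set had 80, 2942 and 6982, against 346, while another had 62.2, 1544 and 530.3, against 1861, and did not share the high value in the B/T BAL. Lcp2 (SLP-76), the relative of Blnk, had 5948, 6594 and 6302, against 4264 in normal marrow, nearly level between the leukemias where Blnk was graded. Tec, a relative of Btk, had 1313, 3211 and 1280, against 3403 in normal marrow. Lat, the T-cell membrane adaptor, had 106, 4436 and 26454, against 765 in normal marrow.

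**Figure D4:**
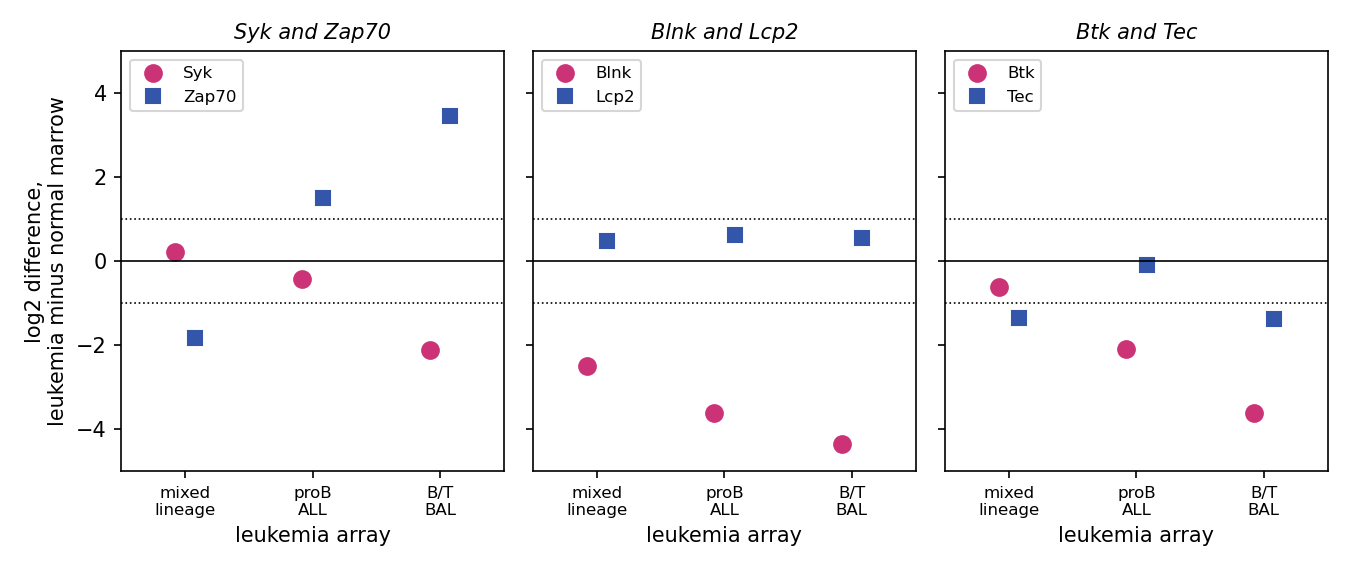
Log2 difference of each leukemia array from normal marrow for Syk, Blnk and Btk (circles) beside their relatives Zap70, Lcp2 and Tec (squares), each gene by its brightest probe set; dotted lines mark 2-fold. In the B/T BAL Syk lies at -2.11 and Zap70 at 3.46, and Blnk lies at -4.35 and Lcp2 at 0.56.

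For each of the 9 genes, the genes with the nearest pattern were found by the root mean square distance between mean-centred log2 values over the 4 arrays. Nearest to Syk was Plcg2, at a distance of 0.02, with Exoc6 at 0.06 and Tesc at 0.08. Nearest to Cd79a were Ccdc186 at 0.05, Upb1 at 0.10 and Dclre1a at 0.11. Nearest to Vpreb1 were the erythroid genes Klf1, at 0.12, and Trim10 and Epb42, each at 0.22. Klf1, for instance, had 192 in the mixed lineage leukemia, 104 in the proB ALL and 165 in the B/T BAL, against 21735 in normal marrow. Nearest to Igll1 were Isg20 at 0.14, Slc25a37 at 0.18 and Hemgn at 0.19, and nearest to Vpreb3 were Tent5c at 0.18, Gch1 at 0.22 and Art4 at 0.36. Nearest to Blnk were Ell2 at 0.18, Fcer2a at 0.20 and Vopp1 at 0.26, and nearest to Btk were Hipk2 at 0.11, Slc40a1 at 0.22 and Ccdc92b at 0.24. Nearest to Cd79b were H2-T24, Klhl7 and Dapk2, at 0.23 to 0.26, and nearest to Cd72 were Abcc9, Camsap2 and Slc7a2, at 0.09 to 0.17. The distances of Vpreb1 and Igll1 rest on leukemia signals below the floor, and those of Vpreb3 do so in part. Some near genes had signals below the floor, such as Abcc9 with 54.1 in the mixed lineage leukemia and 107 in the B/T BAL. Such signals have no order. These distances describe 4 arrays, with no test.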

How the data were processed

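Total RNA of 3 leukemias and 1 normal marrow was biotin-labelled for Affymetrix mouse arrays, 1 per sample. The deposited values are intensity values, 1 per probe set, from MAS5 per the submitters' processing notes, which state neither version nor settings. Their trimmed mean, after removal of 2% at each end, was 1000 on every array. Of 45101 probe sets, 64 controls were left out, 34945 had 1 gene symbol, 932 several and 9160 none in the annotation used here. Of several probe sets of a gene, the one with the highest mean of log2(signal + 51.4) stood for it, and 14012 genes above the floor of 189 on at least 1 array were tested with limma 3.58.1 in R 4.3.3 (lmFit, eBayes with an intensity trend, Benjamini-Hochberg over all genes). The fit was tested on simulated data. Their spread was the same for every gene and array, whereas the SD among the leukemias was 0.44 to 1.62 for the 9 genes. MAS5 subtracts background and scales globally, so dim signals are noisy and fold changes are relative to all transcripts. Single arrays were compared by 2-fold differences without a test. A comparison between 2 leukemias counted a gene only if 1 side exceeded the floor. The number of arrays limits the precision.

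The 9 genes and the lists were chosen with earlier results of these data known. Named were all 9 genes by every probe set, genes of the pathway and marker lists, and the 3 nearest genes by pattern of each. Genes of the pathway and marker lists without a single-gene probe set here were not analysed here. Alternatives covered normalization, pseudocount, floor, filter, probe set rule, variance model and each leukemia left out.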

Additional observations from a re-analysis of the deposited data

Results flagged for a closer look

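Among the 9 genes none was at least 2-fold higher than normal marrow in 1 leukemia and at least 2-fold lower in another. Among the other pathway genes 3 were, and with 1 array a group the difference was not tested. The share of all genes that met this rule was not counted, so whether 3 exceeds the general rate is not known. Fcgr2b, an inhibitory receptor for IgG that B cells and myeloid cells share, had log2 differences of 1.39 in the mixed lineage leukemia and -1.82 in the B/T BAL. Lat2, a membrane adaptor of B cells, natural killer cells and myeloid cells, had 1.18 in the mixed lineage leukemia and 2.34 in the proB ALL but -2.01 in the B/T BAL by its brightest probe set, and its other probe sets lay below the floor on all 4 arrays. Rasgrp1, a Ras activator of T cells, had -1.10 in the mixed lineage leukemia, 2.97 in the proB ALL and 2.32 in the B/T BAL.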

How the results depend on the processing

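No paired analysis was possible because each group has 1 array. None of the 9 genes changed the sign of its log2 difference over the leukemias under any of its 13 or 14 alternatives. Genes lower at an adjusted p of 0.05 in limma numbered 0, but 15 with a pseudocount at the 50th percentile and 23 with robust eBayes, Vpreb1 among both. Leaving out 1 leukemia gave 0 to 109 lower genes and 0 to 4 higher: 67 and 4 without proB ALL, 109 and 4 without B/T BAL, and 0 of each without mixed lineage leukemia. Such fits take their spread from 2 leukemias, with 1 residual degree of freedom before moderation. For Vpreb1 and the brighter Igll1 probe set, both of those signals lay below the floor. Counts of the 9 genes against normal marrow moved by over 1.5 times in 1 case: without probe sets ending in _x_at, _s_at or _a_at, which removes Cd72 and the brighter Igll1 probe set, 3 of 8 were at least 2-fold lower in the mixed lineage leukemia. The same setting gave 7 of 8 in proB ALL and 7 of 8 in B/T BAL, in place of 8 and 9 of 9, and a pseudocount at the 50th percentile gave 7 of 9 in proB ALL. Between mixed lineage leukemia and proB ALL, 1 gene was at least 2-fold higher with a pseudocount at the 50th percentile, in place of 3. Without probe sets of those endings 0 were lower there, in place of 1, because that 1 gene, Cd72, was removed. Between mixed lineage leukemia and B/T BAL, 1 was lower under quantile normalization, in place of 0. In proB ALL against B/T BAL, the 1 lower gene became 0 with that pseudocount or with dim signals raised to the floor, and 2 with the mean over probe sets or without such endings. Of the 50 pathway genes, the 7 lower in the mixed lineage leukemia became 4 under scaling to the 75th percentile and 4 with the larger pseudocount, and the 6 higher became 1 with the mean over probe sets. The cause of these moves was not tested where no construction is named. Signals under the floor of 189 have no order.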

Other observations

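The B-lineage transcription factors, of which 10 passed the filter, had median log2 differences of -1.57 in the mixed lineage leukemia, -0.66 in the proB ALL and -1.48 in the B/T BAL. At least 2-fold lower were 7 in the mixed lineage leukemia, 4 in the proB ALL and 6 in the B/T BAL, and higher were 1, 1 and 2. Over all genes 15.2%, 18.7% and 17.7% were lower and 18.8%, 11.3% and 15.4% higher. The 1 and 2 higher in the proB ALL and B/T BAL lie near those shares. Ikzf3, a factor of lymphocytes, had 845 in the mixed lineage leukemia, 7333 in the proB ALL and 7549 in the B/T BAL, against 2031 in normal marrow. Tcf3, which encodes the E proteins that bind E-boxes, had 561, 2399 and 4641, against 1635 in normal marrow. Irf4, which restrains pre-B-cell receptor signalling, had 38.3, 496 and 669, against 1056 in normal marrow. Bach2, a repressor of lymphocytes, had 603, 1945 and 338, against 2342 in normal marrow. Pou2af1, the coactivator of octamer-binding factors, had 1298, 2397 and 1488, against 4236 in normal marrow.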
